A study of Mus musculus with 4 samples.

Results

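Sphingosine 1-phosphate (S1P) and lysophosphatidic acid (LPA) are signalling lipids that act through receptors coupled to G proteins. The data described here are the transcript levels of 10 genes of these pathways, chosen by name from the 55421 genes listed in the deposited counts: the S1P receptor genes S1pr1, S1pr2, S1pr3 and S1pr5, the sphingosine kinase genes Sphk1 and Sphk2, the LPA receptor genes Lpar1, Lpar4 and Lpar6, and Enpp2, which encodes autotaxin. All 10 had enough reads to be tested. The data come from mouse astrocytes infected with a lentivirus carrying a short hairpin RNA (shRNA) against Phf8, the gene of a Jumonji histone demethylase (2 libraries), and from the same kind of astrocytes infected with a lentivirus carrying a control shRNA (2 libraries). Both groups derive from C57BL/6J neural stem cells that had been differentiated to astrocytes in culture in medium with fetal bovine serum. The labels give neither an age nor the number of stem cell lines used. The replicates are named biological in the design text, with no word on separate cultures or infections, so each p-value below reflects the spread of these 4 libraries, part or all of which may be technical.

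S1P is made inside cells by sphingosine kinases and, once exported, binds a family of S1P receptors. LPA is made largely outside cells by autotaxin, a secreted lysophospholipase D, and binds a separate family of LPA receptors. Serum carries both lipids. In astrocytes these receptors are known for effects on the cytoskeleton, on proliferation and on the reactive state. S1pr1 couples to Gi proteins, whereas S1pr2, S1pr3, S1pr5, Lpar1, Lpar4 and Lpar6 can also couple to G12 and G13 proteins.

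The stretch just upstream of the start site is shown for the members that fell more than 2-fold, since they moved together, and for Sphk2, whose transcript did not pass the test. Phf8 carries a PHD finger that binds histone H3 trimethylated on lysine 4, a mark found at active promoters rich in CpG dinucleotides, so capitals mark every CpG. Each line gives the 250 bases before the RefSeq start site, 5′ to 3′ on the strand of the gene, from the RefSeq promoter table of GRCm38.p6 (the mm10 assembly), which holds 8 of the 10 genes. S1pr1 and Enpp2 have no entry there. The windows are chr13:51408368-51408617 on the plus strand for S1pr3, chr4:58553492-58553741 on the minus strand for Lpar1, chr9:20976794-20977043 on the minus strand for S1pr2 and chr7:45718003-45718252 on the minus strand for Sphk2.
S1pr3: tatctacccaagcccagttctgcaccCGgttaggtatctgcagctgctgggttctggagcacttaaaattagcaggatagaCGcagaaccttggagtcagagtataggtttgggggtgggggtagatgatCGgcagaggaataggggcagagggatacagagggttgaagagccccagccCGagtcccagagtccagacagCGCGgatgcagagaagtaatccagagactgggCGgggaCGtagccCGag
Lpar1: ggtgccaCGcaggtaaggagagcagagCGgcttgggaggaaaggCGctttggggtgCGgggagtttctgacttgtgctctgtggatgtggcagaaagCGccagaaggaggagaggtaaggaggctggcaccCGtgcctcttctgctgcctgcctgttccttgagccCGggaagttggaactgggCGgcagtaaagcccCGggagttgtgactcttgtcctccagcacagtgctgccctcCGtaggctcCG
S1pr2: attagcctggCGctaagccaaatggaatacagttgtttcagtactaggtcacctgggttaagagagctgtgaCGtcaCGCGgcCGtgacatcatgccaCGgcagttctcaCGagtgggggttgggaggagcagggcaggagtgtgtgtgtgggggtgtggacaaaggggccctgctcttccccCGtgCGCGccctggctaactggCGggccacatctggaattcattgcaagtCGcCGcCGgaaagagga
Sphk2: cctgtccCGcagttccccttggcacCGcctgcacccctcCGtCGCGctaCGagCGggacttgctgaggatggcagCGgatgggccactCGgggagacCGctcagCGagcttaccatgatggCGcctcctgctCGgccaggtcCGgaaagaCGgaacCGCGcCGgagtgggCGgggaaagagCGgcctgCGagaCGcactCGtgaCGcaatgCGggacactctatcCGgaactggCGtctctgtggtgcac
The Lpar1 start site used is the one of 3 in the table nearest to the 5′ end of the deposited gene, 407 bases from it.

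The window of S1pr3 held 9 CpG, that of Lpar1 11, that of S1pr2 14 and that of Sphk2 27, against a median of 6 over the 32851 windows of the table. The observed to expected CpG ratio was 0.482 for S1pr3, 0.48 for Lpar1 and 0.663 for S1pr2, higher than in 58.4%, 58.2% and 70.5% of all windows. Sphk2 stood at 0.946, higher than in 91.2% of windows. The lowest ratios among the 8 genes were those of Lpar6 at 0.11, with 1 CpG, and Sphk1 at 0.214. Lpar4, which fell by less than 2-fold, stood at 0.253 with 3 CpG. S1pr5, which like Sphk2 did not pass the test, stood at 0.736 with 22 CpG. The GC box GGGCGG, searched on both strands, was found in the windows of S1pr3 (at -20 to -15 from the start site), Lpar1 (-69 to -64) and Sphk2 (-83 to -78), and also of S1pr5 and Lpar4, and it is present in 32.7% of all windows. The AP-1 motif TGANTCA (in 6.75% of all windows), the STAT motif TTCNNNGAA (7.02%) and the CArG box that binds SRF (1.47%) had no match in any of the 8 windows. The TEAD motif GGAATG (12.6% of all windows) matched in Sphk1 and Lpar6 only, CCAAT (33.9%) in Lpar4 only, and TATAAA (12.4%) in Sphk1 and Lpar4 only. These matches are a description of the letters and not of bound sites.

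The libraries held 36839530 to 44724759 reads assigned to genes, and levels are given as CPM, a gene's reads as a share of its library's total, after TMM scaling, which aligns the libraries on the bulk of genes, as mean ± SD of n = 2 libraries. Setting Phf8 shRNA against control shRNA compares transcript levels under the targeting and the control shRNA. Effects of the shRNA that do not run through Phf8 cannot be told apart here from those that do. The targeted gene itself was lower, at 44.3 and 42.3 CPM in Phf8 shRNA astrocytes against 53.3 and 53.0 CPM in control shRNA astrocytes. This is a decrease of 18.5% (log2 fold change -0.30 ± 0.06 SE). The share of reads from mitochondrial ribosomal RNA was 27.8% and 28.2% in Phf8 shRNA libraries and 21.2% and 22.5% in control shRNA libraries. With mitochondrial genes and the 20 most abundant genes left out, the chosen genes had 3 higher and 5 lower calls, as in the main test. The log2 fold changes were then -2.89 for S1pr3, -3.23 for Lpar1 and -1.72 for S1pr2. Other ways in which this share could bear on the results were not tested. The astrocyte markers Gfap, Aqp4, Slc1a2, Slc1a3 and Gja1 were abundant in every library. Gfap stood at 1319 and 1024 CPM in Phf8 shRNA libraries and 4079 and 3863 CPM in control shRNA libraries, and Aqp4 at 582.5 and 481.6 CPM against 1323 and 1351 CPM. Slc1a2 stood at 967.9 and 981.6 CPM in Phf8 shRNA libraries and 135.5 and 135.1 CPM in control shRNA libraries, and Slc1a3 at 1924 and 1804 CPM against 1805 and 1821 CPM. Of 9 astrocyte markers, 2 rose and 6 fell, with a summed level of 6667 and 5952 CPM in Phf8 shRNA libraries and 9571 and 9323 CPM in control shRNA libraries, and their part in the results below was not tested. Cultured populations were measured in bulk, so fewer cells of a type and less RNA per cell cannot be told apart.

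Of the 10 genes, 5 fell and 3 rose with Phf8 shRNA when the threshold was a Benjamini-Hochberg adjusted p of 0.05 by the quasi-likelihood test of edgeR, and 2 did not pass. Over all 21042 genes tested, 52.1% passed, 27.3% lower and 24.8% higher, so passing the test does not by itself set these genes apart. All 5 that fell are receptors, among 7 receptor genes. Lpar1, S1pr3 and S1pr2 fell more than 2-fold, which 8.71% of all genes tested did. The groups did not overlap for 9 of the 10 genes, as for 73.9% of all genes tested. The median log2 fold change was -0.26 over the 10 genes and 0.01 over all genes tested. The plot of levels by library shows each gene.

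**Figure D1:**
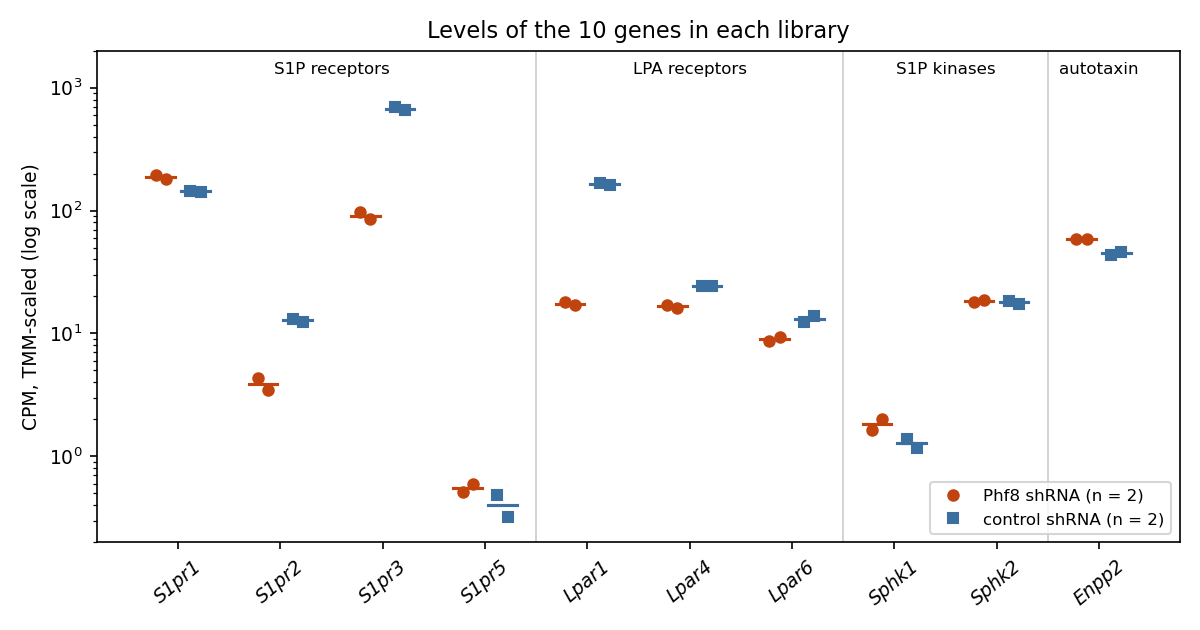
TMM-scaled CPM (log axis) of the 10 genes in each library, Phf8 shRNA as circles left of control shRNA as squares, with a line at the mean of n = 2. S1pr3 lies at 97.2 and 85.0 CPM in Phf8 shRNA against 690.6 and 660.7 CPM in control shRNA libraries, and Lpar1 at 18.2 and 16.9 against 166.2 and 163.0 CPM, while Sphk2 overlaps between the groups.

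The S1P receptor genes went in opposite directions. S1pr3 encodes a receptor that can couple to Gi, Gq and G12/13 proteins and is widely used as a marker of reactive astrocytes. The gene is at 51408639 to 51422797 of chromosome 13, plus strand (mm10). It had 4204 and 3121 reads in Phf8 shRNA libraries and 29876 and 27030 reads in control shRNA libraries, or 97.2 and 85.0 CPM against 690.6 and 660.7 CPM. Both Phf8 shRNA libraries were far below both control shRNA libraries. The log2 fold change was -2.89 ± 0.06 (SE), a 7.41-fold decrease, with an adjusted p too small to be told from 0 (edgeR). S1pr3 was among the most abundant genes of control shRNA astrocytes, above 99.6% of the genes tested, and 1.46% of genes had a lower fold change. Exons of the long noncoding RNA gene Gm32834 overlap 1.01% of its exonic length on the opposite strand.

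S1pr2, whose product couples mainly to G12/13 proteins, fell as well, at a much lower level. It lies on the minus strand of chromosome 9 from 20962361 to 20976781. Its level was 4.30 and 3.43 CPM in Phf8 shRNA libraries, against 13.2 and 12.4 CPM in control shRNA libraries, and the groups were well apart. On the log2 scale the difference was -1.72 ± 0.11 (SE), or 3.29-fold lower, with adjusted p = 2.5e-57 (edgeR).

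S1pr1, which encodes a receptor coupled to Gi proteins, rose modestly. It lies on the minus strand of chromosome 3 from 115710433 to 115715072. It stood at 194.8 and 180.6 CPM in Phf8 shRNA libraries and at 145.6 and 141.3 CPM in control shRNA libraries, so that both Phf8 shRNA libraries were above both others. Its log2 fold change was 0.39 ± 0.06 (SE), a rise of 30.9%, with adjusted p = 2.3e-11 (edgeR). S1pr1 is also an endothelial gene. The summed level of 10 endothelial markers was 2.45 and 2.26 CPM in Phf8 shRNA libraries and 6.31 and 6.50 CPM in control shRNA libraries. Most of the control shRNA sum was Kdr, at 0.439 and 0.490 CPM in Phf8 shRNA libraries and 4.49 and 4.50 CPM in control shRNA libraries, and Cdh5 had 0 reads in every library. Of the 10, 5 could be tested, of which 1 fell and 0 rose.

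S1pr5, a receptor best known in oligodendrocytes and natural killer cells, was barely detected. It lies on the minus strand of chromosome 9 from 21242912 to 21248443. It had 22 and 22 reads in Phf8 shRNA libraries and 21 and 13 reads in control shRNA libraries. The depth-adjusted ratio of summed reads was 1.36, with a 95% exact binomial counting interval of 0.851 to 2.20, and the adjusted p was 0.31 (edgeR). A change of S1pr5 was not detectable at this depth, and the interval covers counting error only.

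Set against each other per length of exon, the abundant S1P receptors changed places. S1pr3 stood at 20.4 ± 1.93 CPM per kb in Phf8 shRNA and 151.4 ± 4.73 CPM per kb in control shRNA astrocytes. S1pr1 stood at 61.6 ± 3.32 CPM per kb in Phf8 shRNA and 47.1 ± 1.01 CPM per kb in control shRNA astrocytes. The ratio of S1pr3 to S1pr1, which does not depend on the scaling between libraries, was 0.341 and 0.321 in Phf8 shRNA libraries and 3.24 and 3.19 in control shRNA libraries. S1pr3 was thus the lower of both in each Phf8 shRNA library and the higher in each control shRNA library. Of the summed level of the 5 S1P receptor genes, S1pr3 made up 24.6 ± 0.75% with Phf8 shRNA and 75.6 ± 0.16% with control shRNA. S1pr1 made up 74.5 ± 0.78% with Phf8 shRNA and 23.5 ± 0.18% with control shRNA. S1pr2, S1pr4 and S1pr5 each held under 1% in both groups. The summed level of the family was 82.8 ± 5.33 CPM per kb with Phf8 shRNA and 200.3 ± 5.83 CPM per kb with control shRNA, 2.42-fold lower with Phf8 shRNA. With 2 libraries against 2, an exact two-sided permutation test of such a ratio or share cannot give a p below 0.333, the value obtained here.

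**Figure D2:**
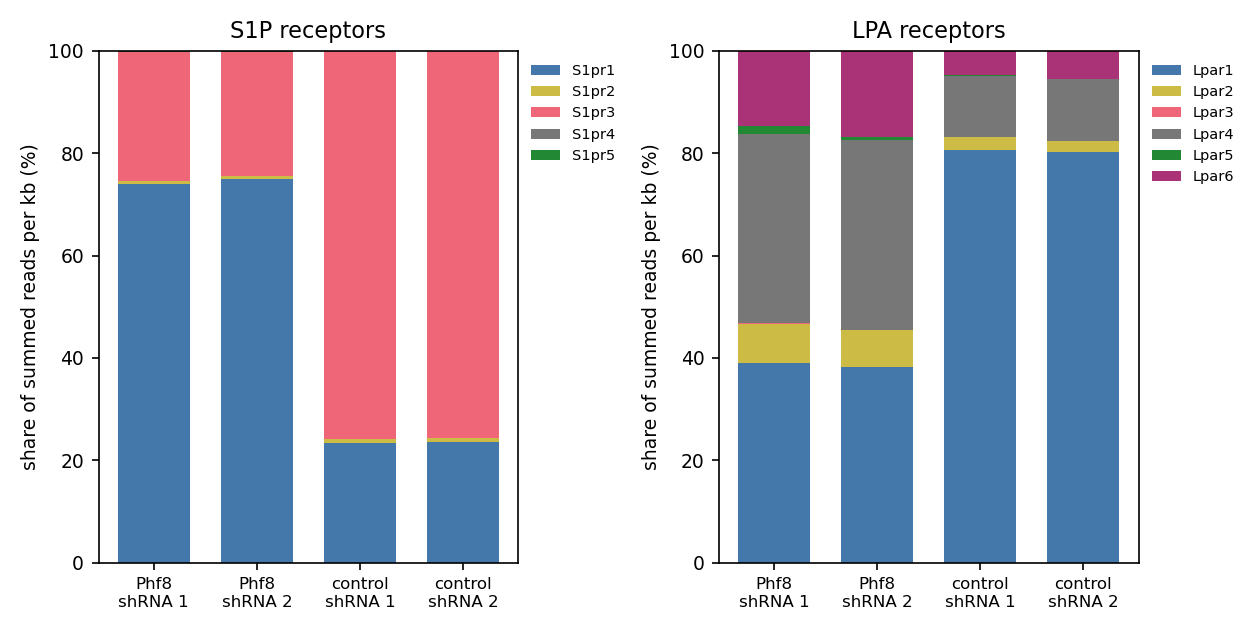
Share of each receptor gene in the summed reads per kb of exon of its family, in percent, for each library, Phf8 shRNA left of control shRNA. S1pr1 makes up 73.9% and 75.0% of the S1P receptor level in Phf8 shRNA libraries against 23.4% and 23.6% in control shRNA libraries, and Lpar1 makes up 39.1% and 38.2% of the LPA receptor level against 80.7% and 80.2%.

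The LPA receptor genes Lpar1, Lpar4 and Lpar6 fell. Lpar1 encodes the first LPA receptor to be identified, a member of the same receptor subfamily as the S1P receptors that couples to Gi, Gq and G12/13 proteins. It lies on the minus strand of chromosome 4 from 58435255 to 58553898. It had 785 and 620 reads in Phf8 shRNA libraries and 7190 and 6670 reads in control shRNA libraries, or 18.2 and 16.9 CPM against 166.2 and 163.0 CPM. The spread within each group was small beside the gap between them. Lpar1 thus had a log2 fold change of -3.23 ± 0.06 (SE), a 9.38-fold decrease, with an adjusted p too small to be told from 0 (edgeR). It was the largest change among the 10 genes, and 1.04% of all genes tested had a lower fold change.

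Lpar4 and Lpar6 encode receptors of another subfamily, related to purinergic P2Y receptors, and both fell by about the same smaller amount. Lpar4 is at 106920625 to 106933900 of chromosome X, plus strand. It stood at 17.0 and 16.2 CPM in Phf8 shRNA libraries, against 24.3 and 24.5 CPM in control shRNA libraries, and the groups did not overlap. Its log2 fold change was -0.55 ± 0.07 (SE), so that the transcript fell by 31.8%, with adjusted p = 2.5e-13 (edgeR). Lpar6 is a single-exon gene on the plus strand of chromosome 14 from 73237895 to 73243294. Its level was 8.60 and 9.43 CPM in Phf8 shRNA libraries and 12.3 and 13.9 CPM in control shRNA libraries, again without overlap. Its log2 fold change was -0.54 ± 0.09 (SE), so that the transcript fell by 31.3%, with adjusted p = 7.4e-09 (edgeR). Lpar6 lies within the gene Rb1 on the opposite strand, whose exons overlap 7.56% of its length. Rb1, the retinoblastoma gene, was itself lower, at 107.4 ± 6.13 CPM in Phf8 shRNA and 187.9 ± 5.27 CPM in control shRNA astrocytes (log2 fold change -0.81 ± 0.06 SE). The sources used here do not state whether reads were counted by strand, so the part of Rb1 reads in the level of Lpar6 was not tested.

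Per length of exon, Lpar1 was by far the leading LPA receptor gene in control shRNA astrocytes. In each Phf8 shRNA library it was only slightly above Lpar4, and the ranges of both genes over these libraries overlapped. With the longest transcript as length, Lpar1 stood further above Lpar4 there, at 43.6% and 42.8% of the family against 34.2% and 34.4%. Lpar1 stood at 4.23 and 3.94 CPM per kb in Phf8 shRNA libraries and at 38.8 and 38.0 CPM per kb in control shRNA libraries. Lpar4 stood at 4.01 and 3.83 CPM per kb in Phf8 shRNA libraries, below Lpar1 in each, and at 5.74 and 5.78 CPM per kb in control shRNA libraries. Of the summed level of the 6 LPA receptor genes, Lpar1 made up 38.6 ± 0.61% with Phf8 shRNA and 80.4 ± 0.37% with control shRNA. Lpar4 made up 37.1 ± 0.11% with Phf8 shRNA and 12.1 ± 0.17% with control shRNA. The share of Lpar6 was 15.8 ± 1.58% with Phf8 shRNA and 5.09 ± 0.47% with control shRNA. These shares of Lpar4 and Lpar6 were larger with Phf8 shRNA although both transcripts fell. The summed level of the family was 10.6 ± 0.37 CPM per kb with Phf8 shRNA and 47.7 ± 0.43 CPM per kb with control shRNA, 4.51-fold lower with Phf8 shRNA.

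Enpp2, Sphk1 and Sphk2, the members whose products make the lipids, differed by at most 1.42-fold. Enpp2 encodes autotaxin, which releases LPA from lysophosphatidylcholine, and lies on the minus strand of chromosome 15 from 54838901 to 54952892. It stood at 59.2 and 58.9 CPM in Phf8 shRNA libraries and at 43.8 and 46.4 CPM in control shRNA libraries, so that the groups did not overlap. The log2 fold change was 0.39 ± 0.06 (SE), a rise of 31.1%, with adjusted p = 8.4e-11 (edgeR). Exons of the noncoding gene Gm26684, which had at most 4 reads in a library, overlap 5.97% of its exonic length. Autotaxin is also made by choroid plexus and by cells of the oligodendrocyte lineage. Of 13 oligodendrocyte lineage markers, 12 rose and 0 fell, their summed level was 1336 and 1289 CPM in Phf8 shRNA libraries against 804.0 and 755.2 CPM in control shRNA libraries, and their part in the rise of Enpp2 was not tested. The choroid plexus markers Ttr and Kl were at or under 0.0545 CPM in every library. Of 8 such markers, 4 could be tested, of which 2 fell and 0 rose. The summed level of the 8 markers was 9.34 and 9.18 CPM in Phf8 shRNA libraries and 37.2 and 36.3 CPM in control shRNA libraries. Most of it was Cldn2, at 6.845 and 6.293 CPM in Phf8 shRNA libraries and 32.09 and 30.92 CPM in control shRNA libraries. The part of such cells in the level of Enpp2 was not tested.

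Sphk2 encodes the sphingosine kinase found mostly in the nucleus and on internal membranes, and lies on the minus strand of chromosome 7 from 45709467 to 45718002. Its level was 18.0 and 18.6 CPM in Phf8 shRNA libraries and 18.3 and 17.4 CPM in control shRNA libraries, and the groups overlapped. The log2 fold change was 0.03 ± 0.08 (SE) and the adjusted p 0.77 (edgeR). The sign of this small value turned with library size alone as scaling (-0.02) and without control shRNA replicate 2 (-0.00240). Exons of Dbp and Rpl18 overlap 13.0% and 8.97% of its exonic length on the opposite strand. Dbp stood at 14.3 ± 0.13 CPM with Phf8 shRNA and 12.4 ± 0.62 CPM with control shRNA, and Rpl18 at 80.0 ± 1.51 CPM with Phf8 shRNA and 73.9 ± 1.00 CPM with control shRNA, and the part of their reads in the level of Sphk2 was not tested.

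Sphk1 encodes the mainly cytoplasmic sphingosine kinase that moves to the plasma membrane when cells are stimulated, and lies on the plus strand of chromosome 11 from 116530925 to 116536674. It had 71 and 74 reads in Phf8 shRNA libraries and 60 and 48 reads in control shRNA libraries, or 1.64 and 2.02 CPM against 1.39 and 1.17 CPM. The groups did not overlap, but lay close together. The log2 fold change was 0.50 ± 0.21 (SE), with adjusted p = 0.0371 (edgeR). The call was lost without control shRNA replicate 1 (0.62, adjusted p = 0.0654), without control shRNA replicate 2 (0.39, adjusted p = 0.248) and without Phf8 shRNA replicate 2 (0.36, adjusted p = 0.237), and with DESeq2 in place of edgeR (adjusted p = 0.299). Over its 15 alternatives the adjusted p ran from 0.0172 to 0.400. Per length of exon, Sphk2 made up 92.0 ± 0.90% of the summed level of both kinases with Phf8 shRNA and 94.1 ± 0.45% with control shRNA.

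Ranked by CPM per kb of merged exonic length, the order of the 10 genes in Phf8 shRNA astrocytes was S1pr1, S1pr3, Enpp2, Sphk2, Lpar1, Lpar4, Lpar6, S1pr2, Sphk1 and S1pr5. Of these neighbours, Lpar1 and Lpar4 overlapped over the libraries, with Lpar1 above Lpar4 within each. In control shRNA astrocytes the order was S1pr3, S1pr1, Lpar1, Enpp2, Lpar4, Sphk2, Lpar6, S1pr2, Sphk1 and S1pr5, with no overlap between neighbours at this length. Levels there ran from 0.161 ± 0.047 CPM per kb for S1pr5 to 151.4 ± 4.73 CPM per kb for S1pr3. With Phf8 shRNA they ran from 0.222 ± 0.026 CPM per kb for S1pr5 to 61.6 ± 3.32 CPM per kb for S1pr1. Both orders depend on the length used. The longest transcript is shorter than the merged exons for Enpp2 (3095 against 5779 bases) and for Lpar1 (3543 against 4289 bases). With that length, the order and overlap of neighbours can differ.

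**Figure D3:**
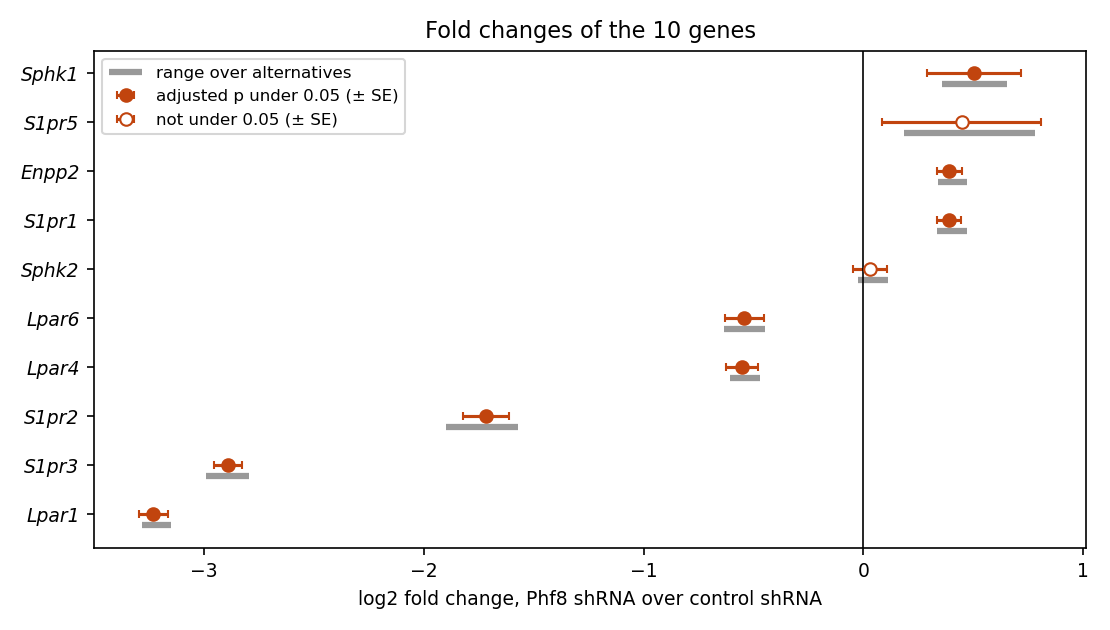
Log2 fold change of each gene, Phf8 shRNA over control shRNA, with its SE. Filled circles passed at an adjusted p under 0.05, open circles did not, and grey bars give the range over the alternative analyses. Lpar1 (-3.23), S1pr3 (-2.89) and S1pr2 (-1.72) stand apart from the other 7 genes, which lie between -0.55 and 0.50.

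The small spread between libraries lets small differences pass, since the common biological coefficient of variation was 3.64%. With that coefficient set to 0.2, only S1pr2, S1pr3 and Lpar1 among the 10 genes passed the likelihood ratio test of edgeR, all lower, as did 9.71% of all genes in that direction. S1pr1, Enpp2, Lpar4 and Lpar6 then had adjusted p-values of 0.475, 0.474, 0.229 and 0.257 in that test, and Phf8 one of 0.639. These are the highest values over 15 alternatives, and the lowest were 5.7e-16, 4.6e-14, 1.5e-13, 5.5e-09 and 5.2e-07 in the same order.

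Of the other receptors for these and related lipids, 2 of 7 could be tested. Lpar2, another LPA receptor of the Lpar1 subfamily, fell to 4.57 ± 0.34 CPM with Phf8 shRNA, against 6.42 ± 0.79 CPM with control shRNA (log2 fold change -0.49 ± 0.12 SE), and without control shRNA replicate 1 it did not pass (-0.37, adjusted p = 0.0516, with 0.000107 to 0.345 over 15 alternatives). Gpr34, a lysophosphatidylserine receptor, rose to 2.99 ± 0.40 CPM with Phf8 shRNA, against 1.84 ± 0.41 CPM with control shRNA, and without control shRNA replicate 1 it did not pass (0.47, adjusted p = 0.0754, with 7.0e-05 to 0.145 over 15 alternatives). S1pr4, Lpar3 and Lpar5 had summed reads of 8, 1 and 14 in Phf8 shRNA and 9, 4 and 5 in control shRNA libraries, too few to test. The depth-adjusted ratio for Lpar5 was 2.95, with a 95% exact binomial counting interval of 1.00 to 10.5.

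Genes that break down or carry S1P moved in both directions: 4 of 12 rose, 4 fell and 4 did not pass, with a median log2 fold change of 0.00 against 0.01 over all genes. Plpp3, a phosphatase of the cell surface that removes phosphate from S1P and LPA, rose 1.77-fold to 754.7 ± 31.5 CPM with Phf8 shRNA, against 426.9 ± 3.25 CPM with control shRNA. Plpp1, a phosphatase of the same family, fell 1.82-fold to 10.2 ± 1.03 CPM with Phf8 shRNA, against 18.8 ± 0.65 CPM with control shRNA, and 25.8% of its exonic length overlaps a gene on the opposite strand. The S1P exporter gene Spns2 rose 2.03-fold to 9.05 ± 0.55 CPM with Phf8 shRNA, against 4.45 ± 0.38 CPM with control shRNA. The lipid transporter gene Abca1 fell 1.39-fold. All 4 had adjusted p-values of 1.2e-13 or less (edgeR).

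A list of 30 genes of ceramide and sphingosine metabolism held genes that make, use or regulate ceramide, and 27 were tested. Of these, 14 fell, 5 rose and 8 did not pass (median -0.19), beside 27.3% lower and 24.8% higher over all genes tested. Cers4, a ceramide synthase gene, fell 7.12-fold to 5.69 ± 0.23 CPM with Phf8 shRNA, against 40.6 ± 1.69 CPM with control shRNA. The sphingomyelin synthase genes Sgms2 and Sgms1 fell 2.95-fold and 1.44-fold, and Asah2, which encodes neutral ceramidase, fell 2.83-fold. Another list of 18 genes held genes of LPA synthesis and removal together with the phosphatase-related genes Plppr1 to Plppr5. Of the 18, 16 were tested, of which 7 rose, 4 fell and 5 did not pass (median 0.13). Plppr5, Plppr3 and Plppr1, which encode phosphatase-related membrane proteins of neurons, rose 2.56-fold, 2.19-fold and 1.64-fold. Their relative Plppr4 and the phosphatidic acid lipase gene Liph, named after their values were seen, were lower, at -1.33 ± 0.34 and -1.79 ± 0.49 (SE) on the log2 scale, and Plppr2 did not pass. With DESeq2 neither passed (adjusted p = 0.0513 and 0.0915), and Liph did not pass without control shRNA replicate 2 (-1.24, adjusted p = 0.175). The acyltransferase gene Agpat5, with 18.9% of its exons overlapped on the opposite strand, rose 1.72-fold. Neuron markers were mostly higher too: 7 of 9 rose and 0 fell, with a summed level of 1901 and 1896 CPM in Phf8 shRNA libraries and 1156 and 1195 CPM in control shRNA libraries, and their part in the changes of the list was not tested.

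Downstream of the receptors, the genes of G proteins, exchange factors and kinases were split, with 8 of 22 higher, 9 lower and 5 that did not pass (median -0.04). Of 14 genes that regulate such receptors, 5 rose, 6 fell and 3 did not pass (median 0.08). Rgs4 and Rgs5, whose products shorten G protein signalling, fell 11.8-fold and 5.18-fold, with Rgs4 at 1.43 ± 0.29 CPM with Phf8 shRNA and 17.2 ± 1.25 CPM with control shRNA. Arrb1 (beta-arrestin) and Grk3 (a receptor kinase) rose 1.88-fold and 1.55-fold.

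Genes known as targets of the transcriptional regulators SRF and YAP, some of which serum lipids induce, were mostly lower. Of 23 such genes, 20 were tested, of which 16 fell, 11 of them at least 2-fold, 0 rose and 4 did not pass (median -1.18, against 0.01 over all genes). Over all genes tested, 27.3% fell, 8.71% fell at least 2-fold and 24.8% rose. Ccn1, a matrix-associated signalling protein gene that serum lipids are known to induce, fell 8.89-fold to 5.49 ± 0.21 CPM with Phf8 shRNA, against 48.9 ± 1.26 CPM with control shRNA. Its relative Ccn2 stood at 0.163 ± 0.00110 CPM with Phf8 shRNA and 8.26 ± 0.041 CPM with control shRNA (log2 fold change -5.64 ± 0.23 SE), with 23.2% of its exonic length overlapped on the opposite strand. The calponin gene Cnn2 and the myosin light chain gene Myl9 fell 30.2-fold and 7.95-fold. Of 10 mural and fibroblast markers, 6 could be tested, of which 3 fell and 1 rose (median -1.50). Acta2, which is also in the list of SRF and YAP targets, stood at 0.301 and 0.572 CPM in Phf8 shRNA libraries and 9.32 and 8.31 CPM in control shRNA libraries, and Rgs5 at 0.601 and 0.409 CPM against 2.27 and 3.08 CPM. Kcnj8 stood at 0 and 0.109 CPM in Phf8 shRNA libraries and 1.57 and 1.56 CPM in control shRNA libraries, while Pdgfrb was higher, at 23.8 and 24.0 CPM against 9.55 and 9.53 CPM. The summed level of the 10 markers, most of it from Pdgfrb and Cspg4, was 70.1 and 75.0 CPM in Phf8 shRNA and 70.8 and 65.8 CPM in control shRNA libraries, and the part of such cells in the list's change was not tested. Of those 10, Col1a1, Col1a2, Col3a1, Dcn and Lum stayed under 0.5 CPM in every library. The list was written with results of these data known, and its count is no independent evidence of a direction.

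**Figure D4:**
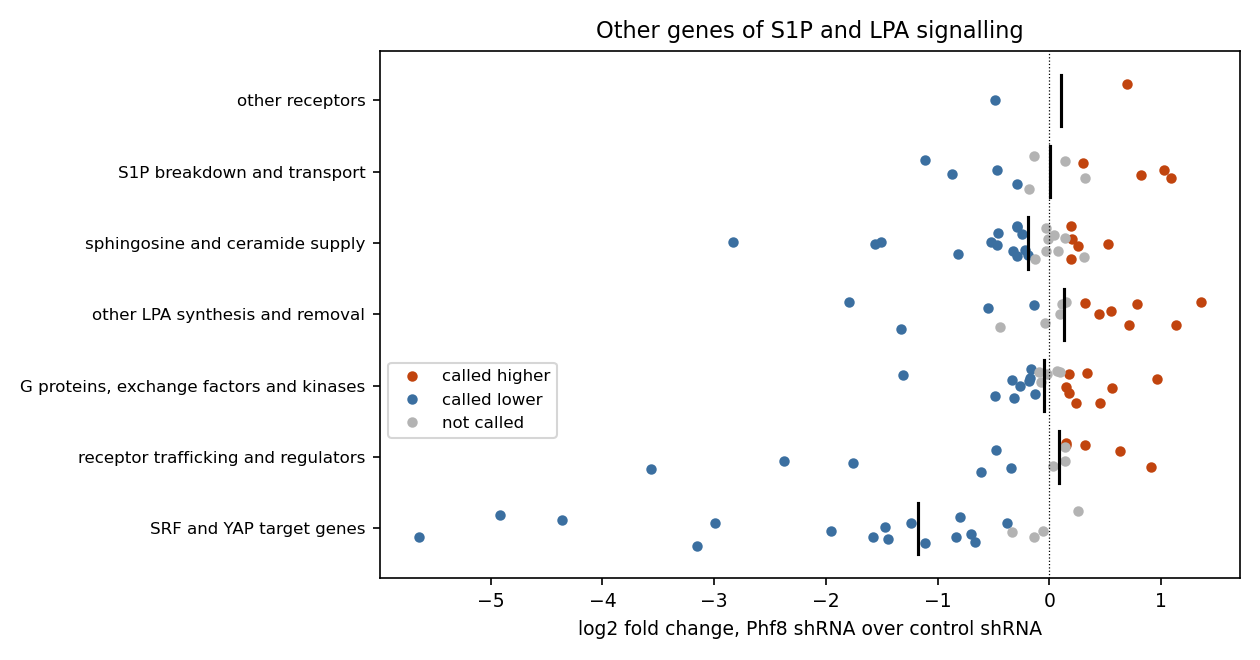
Log2 fold change, Phf8 shRNA over control shRNA, of each tested gene in the 7 lists of other pathway genes, 1 point per gene, coloured by whether it passed higher, passed lower or did not pass at an adjusted p under 0.05, with a black line at each median. The SRF and YAP target genes have a median of -1.18, and the other medians lie between -0.19 and 0.13.

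Markers of ependymal cells moved in the same direction as the receptor genes that fell. Of 6 markers 4 could be tested and all 4 were lower, with a summed level of 31.0 and 29.6 CPM in Phf8 shRNA libraries and 181.4 and 172.3 CPM in control shRNA libraries, most of it from Foxj1, while Tmem212 had 0 reads throughout. Microglia and macrophage markers summed to 6.08 and 6.18 CPM in Phf8 shRNA and 8.92 and 9.63 CPM in control shRNA libraries, with 2 of 9 lower and 0 higher. Other markers went the other way, with 12 of 13 oligodendrocyte lineage markers and 7 of 9 neuron markers higher and 0 lower in both sets. The part of any of these cell types in the fall of S1pr3, S1pr2 and Lpar1 was not tested.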

How the data were processed

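Stranded total RNA libraries depleted of ribosomal RNA were run on an Illumina HiSeq, per the labels' protocols. The deposited files hold a raw read count per gene for 55421 genes, with coordinates, and the submitters' processing notes name HISAT2, HTSeq, DESeq2 and mm10, with versions, strand setting and annotation release not given in the sources used here. Symbols were found for 55154 identifiers, and GENCODE M21 gave exonic lengths and overlaps. Library totals were 36839530 to 44724759 reads. Groups were taken from the titles.

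The main test was edgeR 4.0.16 (R 4.3.3), quasi-likelihood, on the counts of all 4 libraries without covariates, after filterByExpr (21042 genes) and TMM scaling, two-sided, with Benjamini-Hochberg adjustment over all genes and a threshold of 0.05. Each SE was derived from a gene's fold change and F value. Levels per kb divide CPM by the merged exonic length. Named genes were the 10 members, Phf8 and up to 4 called genes of each list by smallest p, of which some are not reported here. The members and lists were chosen with earlier results of these data known. Alternatives were other scalings, DESeq2 1.42.0, limma-voom (limma 3.58.1), other filters, a replicate block, leaving out each library, dropping mitochondrial genes with the 20 most abundant ones, a set dispersion, a threshold of 0.01 and another gene length. The libraries of a group differed by more than sampling noise (chi-square per degree of freedom 2.88 with Phf8 shRNA and 3.18 with control shRNA).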

Additional observations from a re-analysis of the deposited data

How the results depend on the processing

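The falls of S1pr3, S1pr2 and Lpar1 kept their direction and passed under all 15 alternatives, with log2 fold changes of -2.99 to -2.79, -1.90 to -1.57 and -3.28 to -3.15. S1pr1, Enpp2, Lpar4 and Lpar6 failed only with the biological coefficient of variation set to 0.2. There, 3305 genes passed (1262 higher and 2043 lower) against 10965 in the main test (5225 higher and 5740 lower), and among the 10 genes 0 passed as higher and 3 as lower. DESeq2 called 7512 genes, 3170 higher and 4342 lower. Sphk1 lost its call under 7 of 15 alternatives, with adjusted p-values from 0.0172 to 0.400 over all of them. Sphk2, which did not pass, changed sign with library size alone (-0.0227), and its value ran from -0.00240 (without control shRNA replicate 2) to 0.0597 (without control shRNA replicate 1) when a library was left out. S1pr5 could not be tested with a minimum of 1 CPM in 2 libraries. Over the 113 other pathway genes tested, 30 higher and 54 lower calls became 17 higher and 47 lower with DESeq2, and 8 higher and 24 lower with the coefficient set to 0.2. Among those named above, Lpar2, Gpr34, Abca1, Sgms1, Plppr1 and Grk3 lost their call in that likelihood ratio test. Their adjusted p-values there were 0.345, 0.145, 0.333, 0.271, 0.0820 and 0.143. Higher genes made up 47.6% of calls with TMM, 58.0% with upper-quartile scaling and 40.3% with library size alone, and the median log2 fold change of all genes was 0.01, 0.10 and -0.04. The replicate number as a block gave 10929 calls and the same calls among the 10 genes. Same-numbered libraries did not deviate together (r = -0.00102 across genes). With 2 libraries in each group, this cannot tell whether same-numbered libraries shared a culture or an infection. With the longest transcript as length, the share of Lpar1 was 43.2% with Phf8 shRNA and 83.2% with control shRNA, that of Lpar4 34.3% and 10.3%, and that of S1pr2 0.727% and 0.998%. The share of Lpar6 with control shRNA was then 4.35%. With 34 to 145 summed reads a group, S1pr5 and Sphk1 are limited by depth.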
